A study of Mus musculus with 12 samples.

Results

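The 10 melanocyte pigment genes examined here were *Tyr*, *Tyrp1*, *Dct*, *Pmel*, *Mlana*, *Mitf*, *Slc45a2*, *Oca2*, *Mc1r* and *Asip*. They were chosen by name from the gene symbols of a count table of 21247 genes, of which 9 were listed under these symbols. *Asip*, the agouti gene, was listed under its older mouse symbol a, which RefSeq of GRCm38.p6 pairs with the synonym ASIP. Periocular skin, called eye skin in the labels, was taken from 6-week-old mice labelled female on a BALB/c background, with 4 libraries labelled ft/ft and 4 labelled ft/ftMyD88-/-. All 8 share homozygosity for ft, a spontaneous point mutation that inactivates filaggrin, an epidermal barrier protein, and per the study's methods the ft stock lacked the matted (ma) mutation of *Tmem79*. The ft/ftMyD88-/- mice came from an in-house cross of ft/ft with mice lacking MyD88 throughout the body, the adaptor of toll-like and interleukin-1 receptors. Skin of WT mice (4 samples) was not analysed here. The methods describe polyA selection, whereas the labels cite a protocol for fixed tissue and call the molecule total RNA. The study describes as many mice of each genotype as there are libraries, and since no label ties a library to a mouse, p-values measure the spread between these samples.

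Melanin is made in the melanosome, an organelle of melanocytes related to the lysosome, by the enzymes tyrosinase (*Tyr*), *Tyrp1* and *Dct*. MITF is the transcription factor that activates most genes of this machinery, and the receptor MC1R on the melanocyte is activated by melanocortin peptides and blocked by the agouti protein. In hair-bearing skin of mice most melanocytes sit in hair follicles, where pigment is produced while the hair grows and agouti is secreted by the dermal papilla. BALB/c mice are albino through a missense allele of *Tyr* and also carry the brown allele of *Tyrp1*. Such alleles impair pigment and still give transcripts, so an mRNA level is not a measure of pigment. The alleles that these mice carried at *Tyr* and *Asip* were not given in the sources used here.

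Of the 10 genes, 3 were higher in ft/ftMyD88-/- than in ft/ft skin and 0 were lower. These were *Asip* (log2 fold change 3.79), *Mlana* (1.55), a melanosome membrane protein, and *Mc1r* (1.45). The other 7 did not pass the threshold, an adjusted p under 0.05 in edgeR's quasi-likelihood test. *Tyrp1*, *Dct*, *Pmel* and *Mitf* had log2 fold changes between -0.12 and 0.20, and *Oca2*, *Tyr* and *Slc45a2* between 0.78 and 1.12. Of all 20454 tested genes, 10.9% were called higher, 12.3% lower and 23.3% in either direction. Of those calls 47% were in the higher direction, and 77.8% when libraries were scaled by size alone, which called 7 of the 10 genes higher. The median log2 fold change of the 10 genes was 0.86 and that of all tested genes 0.01. All 10 genes had enough counts to be tested.

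**Figure D1:**
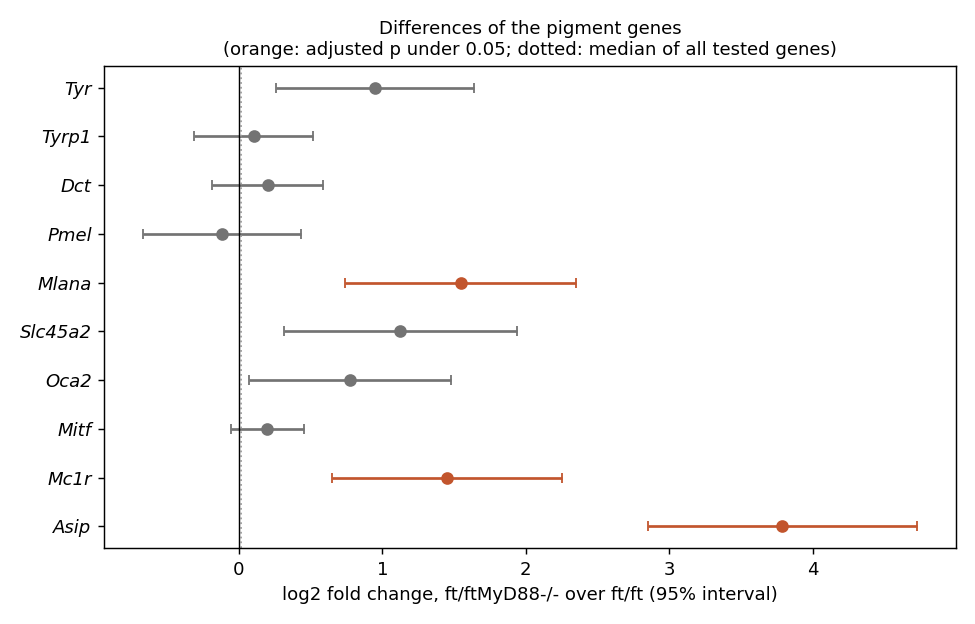
Log2 fold change of the 10 pigment genes in ft/ftMyD88-/- over ft/ft skin with its 95% interval, not adjusted for the number of genes. Orange points have an adjusted p under 0.05, and the dotted line marks the median of all tested genes. *Asip* lies farthest to the right at 3.79, and *Pmel* alone lies below 0 at -0.12.

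Promoter sequence is shown for the genes whose window holds the motif best known for MITF, since MITF is the transcription factor of the group. RefSeq windows of GRCm38.p6, 250 bases before to 50 after a transcription start, were at hand for 7 of the 10 genes, in 9 windows. No window was given for *Pmel*, *Mlana* or *Slc45a2*. TCATGTG or TCACGTG was searched on both strands, and 4 genes (*Tyr*, *Tyrp1*, *Dct* and *Mc1r*) held one, in each case TCATGTG. Either form was present in 7.4% of 32851 windows, and TCATGTG alone in 3.77%. Shortened to CATGTG or CACGTG, both of which lie within the longer forms, the search also found *Oca2*, with 20.4% of windows holding a match. The windows of *Mitf* and *Asip* held no match, which says only that these letters are not in them. The 5 matches are shown with 10 bases on each side, on the strand where they read TCATGTG, with the motif in capitals.
*Tyr*, chr7:87493518-87493544, minus strand, 22 bases before the start: aaaaagttagTCATGTGctttgcagaa
*Tyrp1*, chr4:80834156-80834182, plus strand, 47 bases before the start: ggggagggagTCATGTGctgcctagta
*Dct*, chr14:118052462-118052488, plus strand, 232 bases before the start: tttattgggcTCATGTGtcccagccaa
*Dct*, chr14:118052381-118052407, minus strand, 151 bases before the start: gcacttagggTCATGTGctaacaaaga
*Mc1r*, chr8:123407020-123407046, plus strand, 52 bases before the start: cacatgcccaTCATGTGgccaccctca
The *Tyr* and *Tyrp1* matches share the 11 bases AGTCATGTGCT, chosen after the sequences were seen, which occur in 7 of 32851 windows (0.0213%). The second *Dct* match listed holds all of these bases but the first. The *Tyrp1* match lies inside the gene by its outermost annotated start, at position 80834123. A match is a description of sequence and not a binding site. *Mc1r* holds the motif and was called higher, while *Dct*, with 2 matches, and *Tyrp1* hold it and did not pass the threshold.

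The ft/ft libraries held 18941705 to 29255129 counts each and the ft/ftMyD88-/- libraries 15802957 to 27037997. *Myd88* itself did not fall in the knockout libraries as labelled, at 41.2 ± 7.29 CPM (SD, n = 4), that is counts scaled to a common library size, against 30.7 ± 4.74 in ft/ft (log2 fold change 0.42, edgeR adjusted p = 0.0484), so its level does not check the genotype. *Flg* was at 242 ± 39.5 CPM against 103 ± 69.8 (adjusted p = 0.12), and a point mutation need not change it. *Tmem79*, the gene of the matted mutation, was lower in ft/ftMyD88-/- at 16.4 ± 2.10 CPM against 59.2 ± 2.92 (log2 fold change -1.85, edgeR adjusted p = 5.08e-07). The groups thus differed in the mRNA level of this gene too, which does not show whether either carried the matted mutation. *Xist*, a transcript of the silenced X chromosome in female cells, had 49.4 ± 13.3 CPM in ft/ftMyD88-/- and 1 count in all in the 4 ft/ft libraries. *Ddx3y*, on the Y chromosome, had 0.147 ± 0.225 CPM in ft/ftMyD88-/- and 65.0 ± 8.97 in ft/ft, against the female label. Genotype and sex therefore cannot be told apart in any comparison below, and this holds for the 10 pigment genes too, all of which are autosomal.

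The enzyme genes were compared first. *Tyr* (chr7:87424771-87493512) encodes the rate-limiting enzyme of melanin synthesis. It was at 9.99, 6.11, 9.76 and 5.98 CPM in ft/ft replicates 1 to 4 and at 22.0, 8.97, 11.7 and 18.9 CPM in ft/ftMyD88-/- replicates 1 to 4. Replicates 1, 3 and 4 of ft/ftMyD88-/- lay above every ft/ft library, and replicate 2 lay within the ft/ft range. The means were 7.96 ± 2.21 and 15.4 ± 6.08 CPM (SD, n = 4), and the log2 fold change was 0.95 with an SE of 0.306 and a 95% interval of 0.26 to 1.64. That interval covers 1 gene alone, and after adjustment over all tested genes *Tyr* did not pass (edgeR adjusted p = 0.0517). *Tyr* passed in 6 of 15 alternative fits, with an adjusted p from 0.00394 (DESeq2) to 0.123 (without ft/ftMyD88-/- replicate 4). Of the 8 fits that left out 1 library it passed in 2, at 0.0132 without ft/ftMyD88-/- replicate 2 and 0.0418 without replicate 3.

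*Tyrp1* (chr4:80834123-80851719), which stabilises tyrosinase and acts on a later intermediate, was at 43.3, 36.2, 52.4 and 34.7 CPM in ft/ft and at 56.0, 35.3, 34.9 and 52.9 CPM in ft/ftMyD88-/-. The groups overlapped over most of their range, with a log2 fold change of 0.10 (95% interval -0.31 to 0.52, edgeR adjusted p = 0.732). *Dct* (chr14:118012790-118052244), the dopachrome tautomerase, had the most counts of the 10 genes. Its values were 101, 76.8, 98.5 and 70.3 CPM in ft/ft and 123, 74.0, 85.7 and 115 CPM in ft/ftMyD88-/-, again overlapping. *Dct* differed by a log2 fold change of 0.20 (95% interval -0.19 to 0.59, adjusted p = 0.447).

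The structural proteins of the melanosome differed from each other. *Pmel* (chr10:128704195-128720238) encodes the protein of the amyloid fibrils on which melanin is laid down. It was at 46.9, 37.4, 61.8 and 35.0 CPM in ft/ft and at 56.7, 29.0, 35.5 and 45.7 CPM in ft/ftMyD88-/-. The highest library was an ft/ft and the lowest an ft/ftMyD88-/- one, and the ranges overlapped (log2 fold change -0.12, 95% interval -0.67 to 0.43, edgeR adjusted p = 0.766). *Pmel* shares 139 of its exonic bases (6.07%) with *Cdk2* and *Dgka* on the opposite strand. How the counting divided reads of those bases was not tested.

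*Mlana* (chr19:29697824-29708634), or MART-1, is a membrane protein of early melanosomes that binds PMEL. It was at 3.17, 2.84, 2.68 and 2.91 CPM in ft/ft and at 11.7, 3.75, 5.78 and 13.0 CPM in ft/ftMyD88-/-. The ft/ft mean was 2.90 ± 0.206 CPM, and every ft/ftMyD88-/- library was higher, with a mean of 8.57 ± 4.49 CPM. The log2 fold change was 1.55 with an SE of 0.36, that is 2.92-fold with a 95% interval of 1.67 to 5.10 (edgeR adjusted p = 0.0131). The difference of means had a two-sided exact permutation p of 0.0286, the smallest that 4 against 4 libraries can give. Any gene whose groups do not overlap gets this value, so it adds nothing to the lack of overlap. By the same permutation test p was 0.0857 for *Tyr* and *Oca2* and 0.114 for *Slc45a2*. Within ft/ftMyD88-/- the highest library was 3.47 times the lowest, against 1.18 times in ft/ft.

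For the transporter genes the groups overlapped, and ft/ftMyD88-/- replicate 2 was again the lowest of its group. *Slc45a2* (chr15:11000721-11029233), a melanosomal membrane transporter mutated in a form of albinism, was at 3.51, 2.58, 3.57 and 2.76 CPM in ft/ft and at 10.4, 2.72, 5.21 and 8.90 CPM in ft/ftMyD88-/-. Replicates 1, 3 and 4 of ft/ftMyD88-/- were above all ft/ft libraries and replicate 2 was not. The log2 fold change was 1.12 with an SE of 0.364 and a 95% interval of 0.31 to 1.94, and the edgeR adjusted p was 0.0501. *Slc45a2* passed in 6 of 15 alternative fits, with an adjusted p from 0.00326 (without ft/ftMyD88-/- replicate 2) to 0.126.

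*Oca2* (chr7:56239760-56536518), which encodes the pink-eyed dilution protein that helps set melanosomal pH, was at 3.00, 1.20, 2.18 and 2.07 CPM in ft/ft and at 5.61, 2.09, 3.61 and 3.11 CPM in ft/ftMyD88-/-. Replicate 2 of ft/ftMyD88-/- was below 2 of the ft/ft libraries and the other 3 were above all of them. *Oca2* had a log2 fold change of 0.78 (95% interval 0.07 to 1.48, edgeR adjusted p = 0.103). It passed in 3 of 15 alternative fits, among those that left out 1 library only without ft/ftMyD88-/- replicate 2 (adjusted p = 0.0422), and reached 0.273 without ft/ftMyD88-/- replicate 1.

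*Mitf* (chr6:97807052-98021349), the master regulator of the melanocyte lineage, is also expressed in mast cells, osteoclasts and other cells. It was at 25.8, 21.7, 24.2 and 23.4 CPM in ft/ft and at 32.3, 22.3, 27.9 and 26.6 CPM in ft/ftMyD88-/-. The groups overlapped only through ft/ftMyD88-/- replicate 2, which lay within the ft/ft range. *Mitf* had a log2 fold change of 0.20 (95% interval -0.06 to 0.45, edgeR adjusted p = 0.245). Of the 10 mast cell markers examined (*Cpa3*, *Cma1*, *Mcpt4* and others) 2 were higher (*Fcer1a* and *Hdc*) and 0 lower, and their summed level was 96.3 to 131 CPM in ft/ft and 90.0 to 171 CPM in ft/ftMyD88-/-. Their part in the *Mitf* level was not tested.

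**Figure D2:**
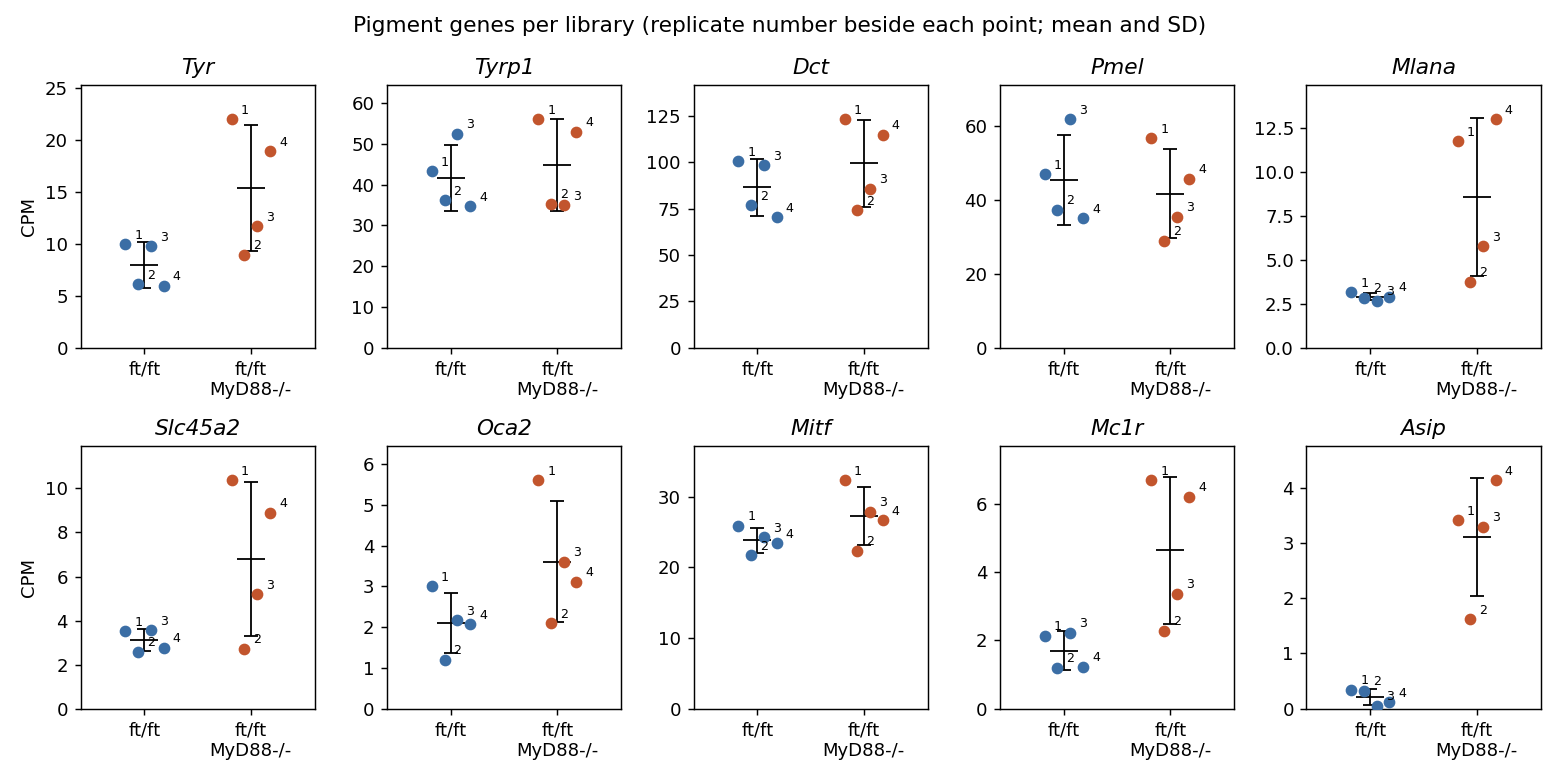
Level of each pigment gene in CPM in the 4 ft/ft (blue) and 4 ft/ftMyD88-/- (orange) libraries, with the replicate number beside each point and bars for the mean and SD. For *Mlana*, *Mc1r* and *Asip* all orange points lie above all blue points, and replicate 2 is the lowest orange point in 9 of the 10 panels, the exception being *Tyrp1*.

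The receptor and its antagonist were both higher in ft/ftMyD88-/- skin. *Mc1r* (chr8:123407107-123410744) was covered by 50, 33, 40 and 32 counts in ft/ft replicates 1 to 4, and by 153, 62, 99 and 102 in those of ft/ftMyD88-/-. These are 2.14, 1.20, 2.23 and 1.23 CPM against 6.70, 2.28, 3.37 and 6.22 CPM. The groups did not overlap, but ft/ftMyD88-/- replicate 2 (2.28 CPM) stood just above the highest ft/ft library (2.23 CPM). The log2 fold change of *Mc1r* was 1.45 with an SE of 0.363, that is 2.73-fold with a 95% interval of 1.57 to 4.76 (edgeR adjusted p = 0.0158, two-sided exact permutation p = 0.0286). Without ft/ft replicate 4 the adjusted p of *Mc1r* was 0.0502. Of its exonic bases 653 (17.9%) lie opposite *Gm38092*, an unclassified transcript not analysed here.

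*Asip* encodes the agouti protein, the secreted antagonist of MC1R. Its counts were 8, 9, 1 and 3 in ft/ft replicates 1 to 4, and 78, 44, 97 and 68 in those of ft/ftMyD88-/-. Its levels were 0.343, 0.327, 0.0558 and 0.115 CPM against 3.42, 1.62, 3.30 and 4.15 CPM. Every ft/ftMyD88-/- library was above every ft/ft library, by at least the step from 0.343 to 1.62 CPM. The log2 fold change was 3.79 with an SE of 0.431, that is 13.8-fold with a 95% interval of 7.22 to 26.5 (edgeR adjusted p = 0.000172, two-sided exact permutation p = 0.0286). The low ft/ft counts leave the size of the fold less certain than its direction, and leaving out any 1 library gave log2 fold changes of 3.55 to 4.09. By the annotation *Asip* spans chr2:154791402-155051012 and shares 147 exonic bases (12.6%) with *Raly*, an RNA-binding protein gene on the same strand. *Raly* was at 159 ± 7.20 CPM in ft/ft and 217 ± 22.0 CPM in ft/ftMyD88-/- (log2 fold change 0.45, adjusted p = 0.0047), and how reads of the shared bases were assigned was not tested.

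The 3 genes whose groups did not overlap were the 3 that were called higher. Of all tested genes, 12.5% had every ft/ftMyD88-/- library above every ft/ft library and 26.7% did not overlap in either direction. Within ft/ftMyD88-/-, replicate 1 was the highest library for 8 of the 10 genes and replicate 4 for *Mlana* and *Asip*. Replicate 2 was the lowest for 9, and replicate 3 for *Tyrp1*. Averaged on the log2 scale over 7 genes that are largely restricted to pigment cells (*Tyr*, *Tyrp1*, *Dct*, *Pmel*, *Mlana*, *Slc45a2* and *Oca2*), the level was 3.74, 3.23, 3.73 and 3.31 log2 CPM in ft/ft and 4.64, 3.42, 3.87 and 4.41 log2 CPM in ft/ftMyD88-/-. Replicates 1 and 4 of ft/ftMyD88-/- stood above the rest, replicate 3 just above the highest ft/ft library, and replicate 2 within the ft/ft range.

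Per kilobase of annotated exon, *Pmel* was the most abundant transcript of the group in ft/ft skin, at 19.8 ± 5.30 CPM per kb (SD, n = 4). *Tyrp1* (14.7 ± 2.86) and *Dct* (14.7 ± 2.59) followed and did not differ beyond their spread. *Mitf* (3.84 ± 0.277) and *Mlana* (2.74 ± 0.195) came next, ahead of *Tyr* (1.12 ± 0.311) and *Slc45a2* (1.04 ± 0.171), whose spreads overlap. *Oca2* (0.533 ± 0.186) and *Mc1r* (0.467 ± 0.155) also lay within each other's spread, and *Asip* was the least abundant at 0.180 ± 0.125 CPM per kb. In ft/ftMyD88-/- skin *Pmel* (18.2 ± 5.29), *Dct* (16.9 ± 3.96) and *Tyrp1* (15.8 ± 3.97) again stood first and within each other's spread. *Mlana* was then at 8.10 ± 4.25 CPM per kb, *Mitf* at 4.41 ± 0.664, *Asip* at 2.67 ± 0.915, *Slc45a2* at 2.28 ± 1.17, *Tyr* at 2.17 ± 0.855, *Mc1r* at 1.28 ± 0.593 and *Oca2* at 0.910 ± 0.373. *Asip* thus moved from the lowest of the 10 places to the sixth, although *Asip*, *Slc45a2*, *Tyr* and *Mc1r*, in that order, each overlapped the next in spread, as *Mlana* did *Mitf*. These levels rest on all annotated exons of a gene, and the isoforms used in skin were not examined. They assume counts that scale with exon length, as in the methods' polyA libraries, and need not hold for the fixed-tissue protocol of the labels. In CPM alone, *Dct* had 86.5 ± 15.3 and *Pmel* 45.3 ± 12.2 in ft/ft skin.

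In whole skin, fewer cells of a type and less RNA per cell cannot be told apart, so the genes were also set against *Dct* within each library. These ratios were chosen with the counts in view and are a description. Counts of *Tyr* per *Dct* count were 0.0795 to 0.0992 in ft/ft and 0.121 to 0.179 in ft/ftMyD88-/-, without overlap. The ratio of *Mlana* was 0.0272 to 0.0415 against 0.0506 to 0.113, and that of *Mc1r* 0.0156 to 0.0227 against 0.0308 to 0.0544. The ratio of *Pmel* went the other way, at 0.466 to 0.628 in ft/ft and 0.392 to 0.460 in ft/ftMyD88-/-. Of 8 ratios to *Dct*, 3 were higher without overlap, 1 was lower without overlap and 4 overlapped (*Slc45a2*, *Oca2*, *Tyrp1* and *Mitf*). Over all tested genes set against *Dct* in the same way, 3.43% lay wholly above, 6.99% wholly below and 10.4% either. The pigment cell genes therefore did not keep 1 ratio to each other in both groups. *Tyr* per *Tyrp1* count was 0.169 to 0.230 against 0.254 to 0.393, *Mlana* per *Pmel* count 0.0433 to 0.0832 against 0.129 to 0.284, and *Asip* per *Mc1r* count 0.025 to 0.273 against 0.510 to 0.980, the ft/ftMyD88-/- range being the higher in each.

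**Figure D3:**
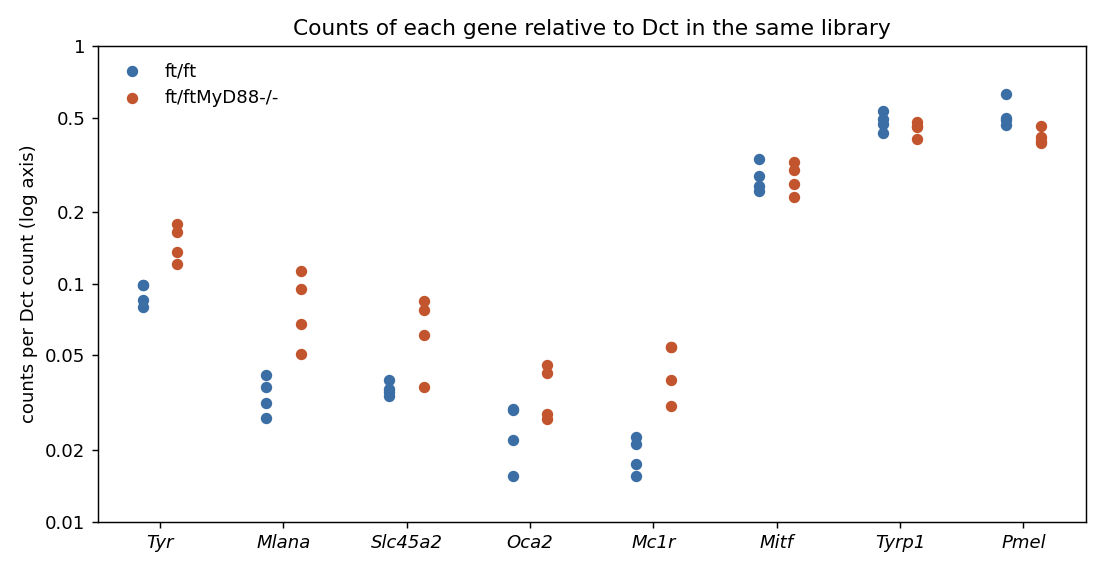
Counts of 8 pigment genes divided by the *Dct* count of the same library, on a log axis, for 4 ft/ft (blue) and 4 ft/ftMyD88-/- (orange) libraries. The groups separate for *Tyr*, *Mlana* and *Mc1r* (orange above) and for *Pmel* (orange below), and overlap for the other 4.

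Because pigment genes are active in growing hair follicles, markers of follicle compartments were examined in the same libraries. All 17 hair shaft and matrix markers (*Krt31*, *Krt33a*, *Krt33b* and others) had positive log2 fold changes with a median of 2.32, and 2 passed the threshold, the transcription factors *Msx2* (1.85, edgeR adjusted p = 0.0494) and *Hoxc13* (1.62, adjusted p = 0.0494). Their summed level was 295.5, 366, 371 and 615 CPM in ft/ft and 5342, 423, 717 and 2356 CPM in ft/ftMyD88-/-. Of 11 inner root sheath markers (*Krt25*, *Krt26*, *Krt27* and others) 1 was higher (*Krt74*, under 1 CPM on average in either group) and 0 lower, with a median of 1.81 and sums of 2085 to 2855 CPM in ft/ft against 16606, 2557, 3849 and 8986 CPM in ft/ftMyD88-/-. Replicates 1 and 4 of ft/ftMyD88-/-, the highest for the mean of the 7 pigment cell genes, were also the highest for both follicle lists. The part of hair follicle content in the pigment gene levels was not tested. The lowest library of its group for the hair shaft and inner root sheath sums was ft/ftMyD88-/- replicate 2, as it was for 9 of the pigment genes. Within ft/ft the order differed. There replicate 4 had the highest sum of both lists (615 and 2855 CPM). It also had the lowest ft/ft level of *Tyr*, *Tyrp1*, *Dct* and *Pmel*, but not of the other pigment genes.

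Of 12 dermal papilla markers, 3 were higher and 0 lower. These were *Wif1* (log2 fold change 0.67, edgeR adjusted p = 0.0172), *Hhip* (0.73, adjusted p = 0.0081) and *Alx4* (0.54, adjusted p = 0.0276), while *Rspo3* was at -0.45 (adjusted p = 0.312). Their summed level was 269 to 362 CPM in ft/ft and 292 to 325 CPM in ft/ftMyD88-/-, and the median log2 fold change was 0.03. The part of dermal papilla content in the *Asip* level was not tested.

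**Figure D4:**
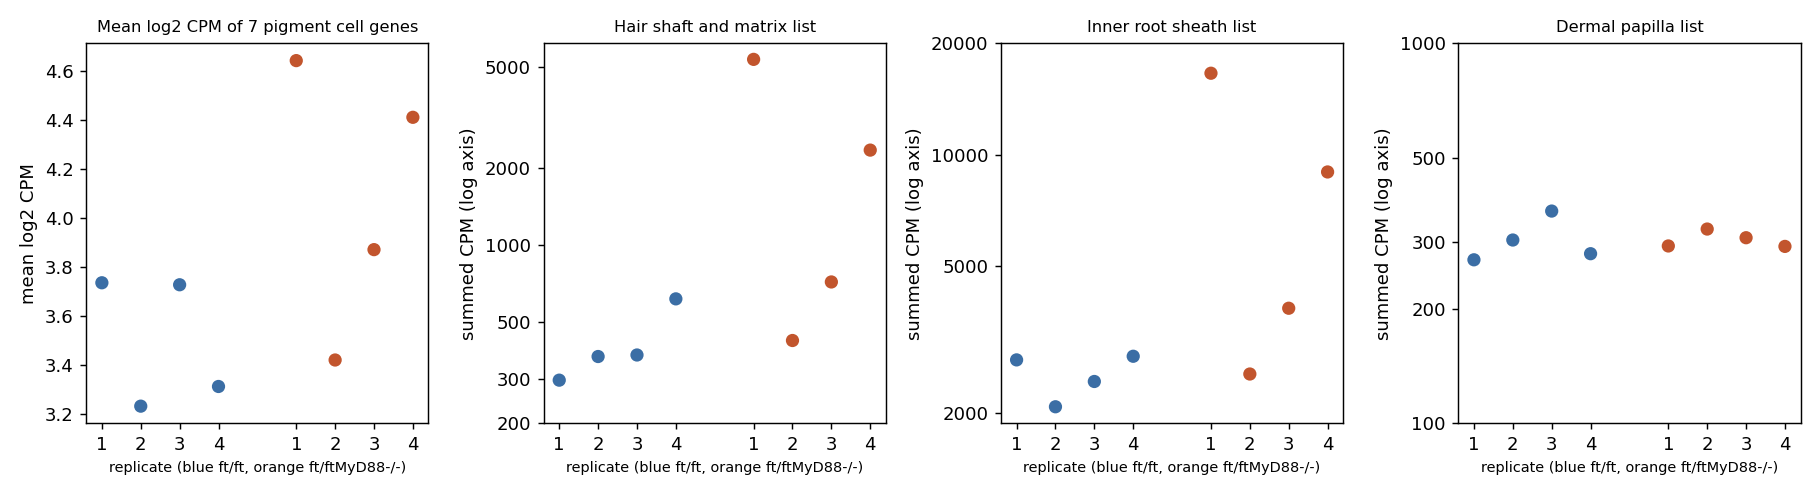
Mean log2 CPM of 7 pigment cell genes and summed CPM (log axes) of the hair shaft and matrix, inner root sheath and dermal papilla markers in each library, ft/ft in blue and ft/ftMyD88-/- in orange. Replicates 1 and 4 of ft/ftMyD88-/- are the highest in the first 3 panels, and the dermal papilla sums of all 8 libraries lie between 269 and 362 CPM.

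The rest of the pigment pathway was described by 5 lists of genes with 71 tested members, of which 14 (19.7%) were higher and 10 (14.1%) lower, with a median log2 fold change of 0.07. Over all tested genes 10.9% were higher and 12.3% lower, the shares against which every list count here is to be read. Of the 10 transcription factors listed for the melanocyte lineage 3 were higher and 0 lower. Which cells of the skin expressed them was not examined. *Lef1*, the partner of beta-catenin in Wnt signalling, had a log2 fold change of 1.96 (edgeR adjusted p = 0.00884), *Tfec*, a relative of MITF, 1.91 (adjusted p = 0.0129), and *Usf1*, a basic helix-loop-helix factor, 0.39 (adjusted p = 0.00547). *Sox10* and *Pax3*, the factors that act upstream of *Mitf* in melanocytes, were at -0.23 (adjusted p = 0.383) and 0.15 (adjusted p = 0.744). *Sox10* is also expressed in Schwann cells. In ft/ftMyD88-/- replicates 1 to 4 *Lef1* was at 17.9, 4.23, 7.08 and 10.9 CPM and *Tfec* at 0.789, 3.64, 1.36 and 1.95 CPM. Replicate 2, the lowest of its group for most of the pigment genes, was thus the highest for *Tfec*.

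Of the 17 receptors and ligands of pigment cells, 2 were higher and 4 lower. *Ednrb*, the endothelin receptor needed by melanocyte precursors, was at 34.0 ± 4.16 CPM in ft/ft and 61.0 ± 13.7 CPM in ft/ftMyD88-/- (log2 fold change 0.85, edgeR adjusted p = 0.00214). Its ligand *Edn3* went the other way, with 8.86 to 14.9 CPM in ft/ft and 5.61 to 6.39 CPM in ft/ftMyD88-/- (log2 fold change -0.88, adjusted p = 0.00354). *Corin*, a dermal papilla protease that modifies the agouti pathway, was higher (0.92, adjusted p = 0.0299), and the melanocortin receptor *Mc5r* of sebaceous glands lower (-0.54, adjusted p = 0.0211), as were *Met* (-0.47) and *Atrnl1* (-0.36). *Kit*, the stem cell factor receptor, was at -0.29 (adjusted p = 0.21). The largest value in this list was that of *Defb3*, a beta-defensin, at 3.61, which did not pass (adjusted p = 0.0715). Its ft/ft replicate 2 was at 13.0 CPM and the other 3 ft/ft libraries at 0.429 to 0.575 CPM. All ft/ftMyD88-/- libraries were above these, at 32.6 to 69.7 CPM.

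Of the 15 genes in the table that were listed as other melanosome proteins, 6 were higher and 2 lower, and *Abcb5* was not analysed here. Whether these transcripts came from pigment cells was not examined. The ion exchanger *Slc24a4* (log2 fold change 1.62, edgeR adjusted p = 0.00256), the cystine transporter *Slc7a11* (1.18, adjusted p = 0.0151) and the cation channel *Trpm1* (1.02, adjusted p = 0.0364) were higher, and *Syngr1* was lower (-0.65, adjusted p = 0.000662). *Slc24a5*, the melanosomal ion exchanger that shapes skin colour, was higher at 0.62 (adjusted p = 0.0373). *Trpm1* was at 15.5, 12.1, 10.7 and 10.4 CPM in ft/ft and at 36.9, 13.9, 19.0 and 29.2 CPM in ft/ftMyD88-/-, with replicate 2 again the lowest of its group and within the ft/ft range. The 20 genes of organelle biogenesis held 1 higher gene (*Bloc1s2*, 0.78, adjusted p = 0.00185) and 2 lower ones, *Ap3b1* (-0.30, adjusted p = 0.0183) and *Bloc1s6* (-0.24). Of 9 genes of melanosome transport 2 were higher and 2 lower. *Myo5a*, the motor (0.57, adjusted p = 0.00898), and *Sytl2* (1.38, adjusted p = 0.0166) were higher, and *Rab27a*, which links melanosomes to that motor (-0.57, adjusted p = 0.00322), and *Rab11b* (-0.36, adjusted p = 0.0094) were lower.

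**Figure D5:**
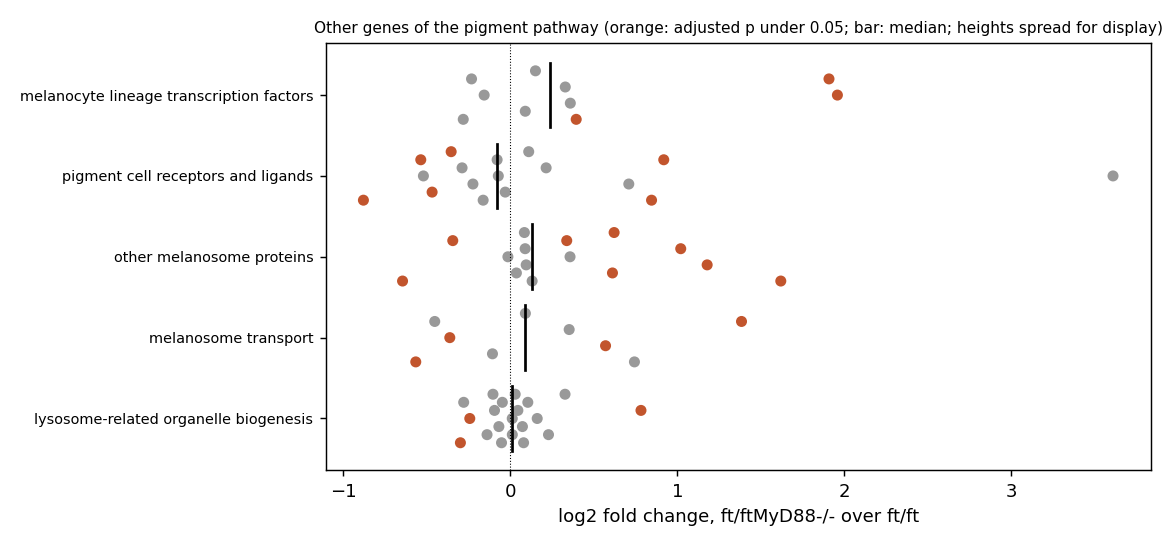
Log2 fold change of each tested gene of the 5 pigment pathway lists, in ft/ftMyD88-/- over ft/ft skin, with orange for an adjusted p under 0.05 and a bar at the median of each list. The list medians lie between -0.08 and 0.24, with single genes such as *Lef1* (1.96) and *Slc24a4* (1.62) well to the right.

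Other pigmented or adjoining tissue was looked for through its markers. *Dct*, *Tyr* and *Pmel* are also expressed in the retinal pigment epithelium of the eye, of whose 8 markers 4 were in the table (*Rpe65* and *Rlbp1* were not analysed here). *Rgr*, *Rdh5* and *Ttr* were each under 1 CPM in every library, and *Lrat*, which skin also expresses, was higher (log2 fold change 1.25, edgeR adjusted p = 0.00391). Of 10 skeletal muscle markers 0 were higher and 9 lower, with sums of 10039 to 13630 CPM in ft/ft and 3803 to 7294 CPM in ft/ftMyD88-/-, and of 9 keratinocyte markers 0 were higher and 5 lower (*Krt5*, *Krt10*, *Lor*, *Dsg1a* and *Col17a1*). Of 9 adipocyte markers 0 were higher and 0 lower. The part of these tissues in the pigment gene levels was not tested.

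The genes whose pattern over the 8 libraries was most like the mean of the 7 pigment cell genes were sought among 14663 genes with a mean of at least 1 CPM. Likeness was the root mean square distance between centred log2 CPM values. The nearest were *Gpr37* (0.0984), *Smad6* (0.147), *Dok4* (0.15), *Wnt11* (0.159) and *Nkd2* (0.16). The 7 genes' own distances from their mean ran from 0.184 for *Tyr* to 0.472 for *Mlana*. All 5 lay nearer to the mean than any gene that formed it, but they were picked as the nearest of 14663 genes. Their closeness follows in part from that choice and does not show that they are regulated with the pigment genes.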

How the data were processed

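The authors deposited raw counts per gene, which the study's methods trace to single-end reads aligned to GRCm38.p6 (HISAT, tophat2) and counted by HTSeq at its defaults, while the labels name Cell Ranger and GRCm38. Versions and annotation release are not given in the sources used here. Genes with at least 10 counts summed over 8 libraries (20454) entered edgeR 4.0.16 under R 4.3.3 (TMM, robust glmQLFit, then glmQLFTest, two-sided, without covariates), with p-values adjusted by Benjamini-Hochberg over all of them. CPM uses TMM-scaled library sizes, and log2 CPM a prior count of 2. The biological coefficient of variation was 0.182. Replicates differed by more than counting noise (chi-square per degree of freedom at least 15.13), and 0 columns of values were left unused. A count of 0 allows up to 3 counts (0.102 to 0.183 CPM), a limit that covers counting error only. The sources differ on the library method, so whether molecular identifiers were used was not settled here. On simulated data for this comparison (20185 genes tested) the fit called 200 of 200 genes changed by a log2 of 2, and 15 unchanged genes. The changed genes were drawn from better-covered ones. Smaller changes, such as those of all pigment genes but *Asip*, were not simulated.

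The pigment genes and all lists were chosen with earlier results of these data known. Named beside the 10 genes are list genes with an adjusted p under 0.05 and a mean of at least 1 CPM, up to 4 per list by size, the first 3 genes of each cell type list, *Myd88*, *Flg*, *Xist*, *Ddx3y* and the 5 nearest genes by pattern. *Sox10*, *Pax3*, *Kit*, *Defb3*, *Slc24a5*, *Tmem79* and *Raly*, the called list genes beyond 4 per list or under 1 CPM, and the ratios to *Dct*, were added after values were seen. Results of the Schwann cell, photoreceptor and macrophage lists are not reported here. Coordinates are those of the GENCODE annotation of GRCm38. Alternatives were DESeq2 1.42.0, limma 3.58.1 voom, other normalizations, filters and thresholds, the replicate number as a block and each library left out.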

Additional observations from a re-analysis of the deposited data

Results flagged for a closer look

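Of 130 groups of 4 values examined, 7 held a library far from the other 3, where chance flags about 1 in 20. None was 1 of the 10 pigment genes. In ft/ft replicate 2 *Ap3b1* stood at 95.3 CPM (others 84.4 to 86.0). *Rab27a* was at 34.3 CPM in ft/ftMyD88-/- replicate 3 and 41.4 to 42.6 in the others of its group. *Kit* was at 36.7 CPM in ft/ft replicate 2 (others 24.8 to 26.1) and at 30.3 CPM in ft/ftMyD88-/- replicate 1 (others 20.1 to 21.2). *Wif1* was at 34.6 CPM in ft/ft replicate 3 (others 20.6 to 22.3), and *Alx4* at 14.2 CPM in ft/ftMyD88-/- replicate 2 (others 12.4 to 12.7). The summed adipocyte markers were at 1948 CPM in ft/ftMyD88-/- replicate 3 and at 956.5 to 1076 CPM in the others.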

How the results depend on the processing

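The 3 pigment genes called higher became 5 with DESeq2, 5 with edgeR's filterByExpr, 7 with library size alone as the scaling and 1 (*Asip*) at an adjusted p under 0.01, and 2 to 6 with 1 library left out. The lowest came without ft/ft replicate 4 and the highest without ft/ftMyD88-/- replicate 2 (5 without replicate 3). The added genes were among *Tyr*, *Slc45a2*, *Oca2* and *Mitf*. Those settings also changed the calls over all genes. DESeq2 called 2865 of 20454 genes higher and filterByExpr 2308 of 16280, or 27.6% and 29.6% in either direction. Without ft/ftMyD88-/- replicate 2 the higher genes numbered 1941. *Asip* and *Mlana* were called in 15 of 15 alternative fits at the same threshold and *Mc1r* in 14, and no pigment gene was called lower in any. Library size alone moved the median of all genes by 0.18 on the log2 scale and gave 4638 higher and 1326 lower genes, against 2239 and 2525, so the 7 are to be read against that shift. All genes higher and lower numbered 752 and 520 with a log2 fold change of at least 1, 951 and 1350 at an adjusted p under 0.01, and 1462 to 2260 and 1851 to 2408 with 1 library left out, the 1462 without ft/ft replicate 4. The sign turned for *Tyrp1* (-0.0199 without ft/ftMyD88-/- replicate 1, against up to 0.233) and *Pmel* (0.0564 with library size alone, and -0.301 to 0.0684 with 1 library left out), neither called under any setting. The cause was not tested.

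No joint deviation of same-numbered libraries was seen (correlations -0.146, 0.0251, 0.0146 and -0.0169, against -0.134 to 0.0842 for pairs of unlike number). With 4 libraries per group these correlations cannot exclude a pairing. A fit with the replicate block called 6 pigment genes higher, adding *Tyr*, *Slc45a2* and *Oca2*. Of all 20454 tested genes that fit called 1895 higher and 2144 lower, against 2239 and 2525 without the block. The differences of *Tyrp1* (0.10) and *Dct* (0.20) were not told apart from 0 here, their intervals including it. Whether changes of that size could be detected was not tested.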
